A study of Mus musculus with 6 samples.

Results

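Costimulatory, checkpoint and effector genes of T cells were followed in a mouse model of T-ALL, acute lymphoblastic leukaemia of T cells, with and without Phf6, a gene for a nuclear PHD finger protein. The members are 10 genes chosen by symbol, Cd28, Icos, Cd226, Ctla4, Pdcd1, Tigit, Lag3, Havcr2, Klrd1 and Gzma. All 10 were found among the 23306 genes with an identifier, and all 10 passed the filter on low values that left 17993 genes for testing. PolyA RNA came from isogenic T-ALL tumours taken from bone marrow of C57BL/6 mice, 3 libraries with wild-type Phf6 and 3 with Phf6 knockout. The knockout was made by conditional deletion with a Cre recombinase that tamoxifen turns on, and corn oil was the vehicle, so loss of the gene and exposure to tamoxifen cannot be told apart. The labels give neither the ages of the animals nor the promoter that drives Cre, and all tumours are of a single isogenic background. They do not say that libraries of a group came from separate animals, so p-values measure only the spread between these samples, which may be technical.

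Reads assigned to genes numbered 46067511 to 54953145 per library. Phf6 itself, the check of the labels, had 4240 to 5508 normalised reads in the wild-type libraries and 1755 to 2337 in the knockout libraries. A normalised read is a read count divided by the library's size factor. T-cell markers were abundant in every library, with Cd3e at 16560 to 21008 normalised reads, as fits the label T-ALL. Markers of neutrophils and of monocytes and macrophages were higher in the knockout samples, and their sums are given beside the results they touch. In bulk samples such as these, fewer cells of a type and less RNA per cell cannot be told apart.

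A T cell is activated when its antigen receptor is engaged together with a costimulatory receptor such as CD28, and inhibitory receptors, called checkpoints, restrain that signal. CD28 and CTLA-4 bind the same ligands, CD80 and CD86, with opposite effects, and CD226 and TIGIT likewise compete for CD155. Granzymes are proteases that killer cells deliver to their targets. Leukaemic T cells keep parts of this equipment from the stage of development at which they arose.

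Among the 10 members, 2 rose in the knockout libraries and none fell. These were Tigit and Icos, at 2.82 and 1.95 times the wild-type mean. Over all genes tested, 5.32% rose and 3.43% fell (limma, Benjamini-Hochberg adjusted p under 0.05). These were 957 and 618 genes, and 1217 and 300 with library totals as the scaling. Another 3 members, Ctla4, Havcr2 and Klrd1, had knockout means more than 2 times the wild-type mean and did not pass, and Pdcd1 and Gzma had lower means and did not pass. The median log2 fold change of the 10 was 0.60, against -0.01 over all genes tested. All 3 knockout values lay above all 3 wild-type values for 4 members and below them for 2, against 15.0% and 16.2% of all genes tested. At an unadjusted p under 0.05 there were 7 members, against 25.2% of all genes tested. The members, and the gene lists below, were chosen with earlier results of these data known. Comparisons with all genes therefore describe them and are no test of them as a set.

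Promoter sequences are shown for 3 inhibitory receptors that differed in direction, Tigit, which rose, Ctla4, whose mean was higher, and Pdcd1, whose mean was lower. RefSeq promoters (GRCm38.p6) were matched by symbol for 5 of the 10 members, the other two being Havcr2 and Gzma. Each sequence is the 250 bases before the RefSeq start, 5′ to 3′ on the gene's strand, at chr16:43664185-43664434 (minus strand) for Tigit, chr1:60908775-60909024 (plus strand) for Ctla4 and chr1:94052554-94052803 (minus strand) for Pdcd1. Capitals mark matches to the motifs searched.
Tigit: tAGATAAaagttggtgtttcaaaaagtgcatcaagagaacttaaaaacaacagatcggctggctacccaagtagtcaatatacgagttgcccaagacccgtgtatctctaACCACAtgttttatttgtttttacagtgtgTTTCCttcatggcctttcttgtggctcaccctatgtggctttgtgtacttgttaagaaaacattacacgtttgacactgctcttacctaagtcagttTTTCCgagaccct
Ctla4: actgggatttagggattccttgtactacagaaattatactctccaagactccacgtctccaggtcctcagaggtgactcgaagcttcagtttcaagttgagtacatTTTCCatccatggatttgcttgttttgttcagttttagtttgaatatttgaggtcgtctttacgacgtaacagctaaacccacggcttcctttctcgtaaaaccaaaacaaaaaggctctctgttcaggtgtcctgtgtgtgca
Pdcd1: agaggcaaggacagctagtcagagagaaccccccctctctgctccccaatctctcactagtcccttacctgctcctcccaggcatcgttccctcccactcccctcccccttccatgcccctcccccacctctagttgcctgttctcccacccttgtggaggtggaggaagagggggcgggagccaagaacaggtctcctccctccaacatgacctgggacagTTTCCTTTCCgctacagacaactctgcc
Both strands were searched for short motifs, and no marked match overlaps another. The letters searched were TGANTCA for the AP-1 family. For NFAT, a factor activated by calcium, they were GGAAA. The RUNX family was searched by TGTGGT. For GATA factors such as GATA3 the search used AGATAA. Finally, the TCF and LEF family was represented by CTTTGA. The NFAT letters were found at 2 places in Tigit, 1 in Ctla4 and 2 in Pdcd1, and 55.6% of 32851 promoter windows of this length hold them. The RUNX letters (14.0% of all windows) were held by 3 of the 5 member promoters, those of Tigit, Havcr2 and Gzma. Tigit alone of the 5 held the GATA letters (9.99%), and none of the 5 held the TCF and LEF letters (13.8%). The AP-1 letters (6.75%) were held by 1 of the 5, that of Havcr2. The windows of Ctla4 and Tigit were 42.4% and 40.0% G and C, and that of Pdcd1 was 60.4%. A match describes the letters and is not evidence of a bound factor.

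Of the 3 costimulatory receptors, Icos rose and Cd28 and Cd226 did not pass; whether their changes differ was not tested. Cd28, the main costimulatory receptor of T cells (ENSMUSG00000026012; GRCm38 chromosome 1, 60716800 to 60773359, plus strand), had 2937, 4515 and 2214 normalised reads in the wild-type libraries, in the order 1, 2 and 3 used throughout. The knockout libraries had 2215, 5626 and 3154. Library 2 was the highest in both groups, and the groups overlapped, with only knockout library 2 above the wild-type range. The log2 fold change was 0.14 ± 0.45 (SE; limma adjusted p = 0.882), with a 95% interval from -1.03 to 1.31 that includes a 2-fold change in either direction. The sign turned without knockout library 2 (-0.22) and without wild-type library 3 (-0.10).

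Icos, the inducible costimulator that supports follicular helper and regulatory T cells (ENSMUSG00000026009; chromosome 1, 60977927 to 61000320, plus strand), had 138, 125 and 165 normalised reads in wild type and 310, 264 and 263 in knockout. Every knockout library was above every wild-type library. The means were 143 ± 20 and 279 ± 27 (SD, n = 3 each), and the log2 fold change was 0.96 ± 0.17 (SE; limma adjusted p = 0.0110). The call was lost without wild-type library 1 (limma adjusted p = 0.0515) and without knockout library 3 (limma adjusted p = 0.0545).

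Cd226, an activating receptor for CD155 (ENSMUSG00000034028; chromosome 18), had 213, 106 and 116 normalised reads in wild type and 125, 152 and 234 in knockout. The groups overlapped, with wild-type library 1 and knockout library 3 the highest of each. Its log2 fold change was 0.25 ± 0.31 (SE; limma adjusted p = 0.666), with a 95% interval from -0.45 to 0.95.

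The inhibitory receptors included the member with the smallest p, Tigit, and the member with the lowest ratio of knockout to wild-type mean, Pdcd1 (0.664). Tigit, the inhibitory receptor that shares its ligand with CD226 (ENSMUSG00000071552; chromosome 16, 43648867 to 43664146, minus strand), had 63.1, 62.2 and 75.0 normalised reads in wild type and 124, 226 and 215 in knockout. The wild-type libraries lay close together and every knockout library was above them, with knockout library 1 the lowest of the 3. The means were 66.8 ± 7.2 and 188 ± 56 (SD, n = 3 each), and the log2 fold change was 1.43 ± 0.25 (SE; limma adjusted p = 0.0102). Without knockout library 3 it was 1.31 and the call was lost (limma adjusted p = 0.0725). Its partner Cd226 did not pass, and whether the changes of these genes differ was not tested. Of the ligand side, Pvr, which encodes CD155, had a log2 fold change of 0.88 and did not pass (limma adjusted p = 0.162).

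Ctla4, the inhibitory counterpart of CD28 (ENSMUSG00000026011; chromosome 1, 60887000 to 60915832, plus strand), had 159, 410 and 174 normalised reads in wild type and 376, 906 and 538 in knockout. Library 2 was again the highest in both groups, and wild-type library 2 lay above knockout library 1, so the groups overlapped. The log2 fold change was 1.33 ± 0.47 (SE; limma adjusted p = 0.153), with a 95% interval from 0.16 to 2.49. Without wild-type library 2 it was 1.76 and passed (limma adjusted p = 0.0218), and it passed without library 2 of both groups at 1.42 (limma adjusted p = 0.00207). Library 2 of both groups also stood apart in some genes induced when T cells are activated, named here after their values were seen. The nuclear receptor gene Nr4a3 had 230, 7381 and 161 normalised reads in wild type and 149, 10908 and 245 in knockout. The NF-kappaB subunit gene Rel had 684, 2388 and 496 against 508, 2640 and 921. Other genes of T-cell activation did not share this pattern. Pdcd1 was lowest in library 2 of both groups (949 and 745). Ifng was highest in library 2 among wild-type libraries (41.5) and lowest in library 2 among knockout libraries (32.2). The part of such differences between libraries in the Cd28 and Ctla4 values was not tested. The span given here, from GENCODE, holds the processed pseudogene Rpl18-ps1 on the same strand, at 24.4 to 50.1 normalised reads. The RefSeq start used for the promoter sequence lies inside that span, and the pseudogene lies before that start.

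Pdcd1, which encodes the checkpoint receptor PD-1 (ENSMUSG00000026285; chromosome 1, 94038305 to 94052553, minus strand), had 1326, 949 and 1489 normalised reads in wild type and 921, 745 and 832 in knockout. All knockout libraries lay below all wild-type libraries, by a small margin between wild-type library 2 and knockout library 1. The means were 1255 ± 277 and 833 ± 88 (SD, n = 3 each), and the log2 fold change of -0.57 ± 0.16 (SE) did not pass (limma adjusted p = 0.0623). It passed in DESeq2 (adjusted p = 0.0124; 5.02% of all genes tested fell in DESeq2) and, in limma, without wild-type library 2 (log2 fold change -0.76, limma adjusted p = 0.00519). Ligand genes of PD-1 were at 0.27 (Cd274) and 0.21 (Pdcd1lg2) on the log2 scale and did not pass.

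Lag3, an inhibitory receptor related to CD4 that binds MHC class II (ENSMUSG00000030124; chromosome 6, 124904361 to 124911705, minus strand), had 2370, 2287 and 2416 normalised reads in wild type and 2179, 2283 and 2907 in knockout. The groups overlapped, and all but knockout library 3 lay within a narrow range. The log2 fold change was 0.05 ± 0.11 (SE; limma adjusted p = 0.832), with a 95% interval from -0.20 to 0.30, the narrowest among the inhibitory receptors. The sign turned without knockout library 3 (-0.08).

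Havcr2, which encodes the receptor TIM-3 found on exhausted T cells and on myeloid cells (ENSMUSG00000020399; chromosome 11, 46454935 to 46481255, plus strand), was the scarcest member. It had 9.01, 27.7 and 10.8 normalised reads in wild type and 35.5, 49.9 and 30.1 in knockout. Wild-type library 2 lay just under the lowest knockout library, and the other wild-type libraries were far lower. The log2 fold change of 1.30 ± 0.40 (SE) did not pass (limma adjusted p = 0.0766), and without wild-type library 2 it was 1.74 and passed (limma adjusted p = 0.0117). The summed neutrophil markers (18 genes, of which 9 rose and none fell) were likewise highest in library 2 among wild-type libraries, at 130, 487 and 208 CPM (reads scaled to a common library total) in wild-type and 1309, 1370 and 1034 in knockout libraries. The summed monocyte and macrophage markers (15 genes in all, of which 14 were tested, 5 rose and none fell) were at 72.0, 124 and 56.1 CPM in wild type and 178, 296 and 233 in knockout. Neither group of libraries overlapped the other in these sums (exact permutation p = 0.1 for each, two-sided, the smallest that 3 against 3 allows). Their part in the Havcr2 values was not tested.

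**Figure D1:**
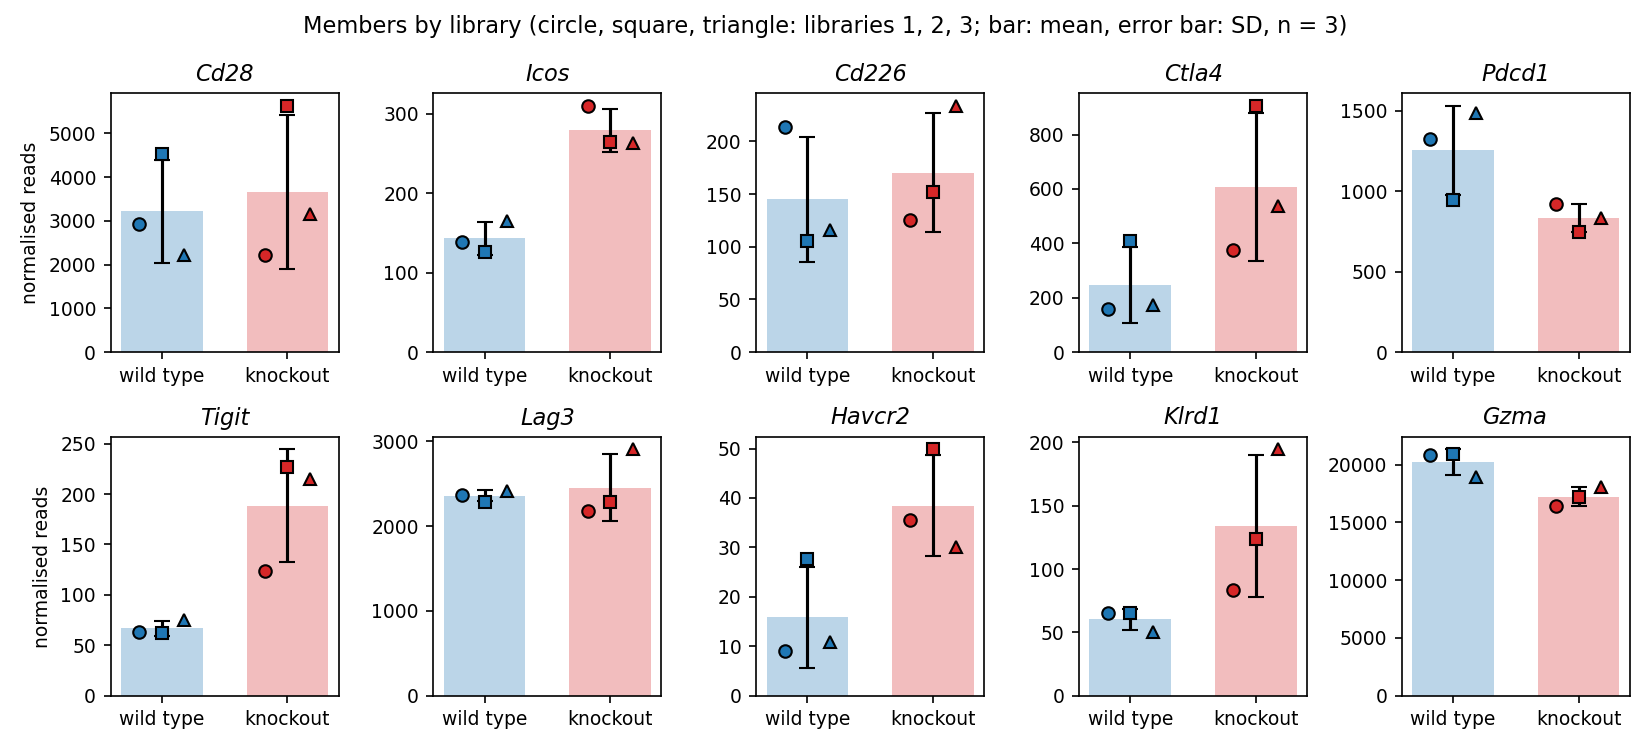
Normalised reads of the 10 members, one panel per gene, with bars for the means of wild-type (blue) and knockout (red) libraries, error bars for the SD (n = 3) and a marker shape for each library number. Tigit and Icos show no overlap, at 62.2 to 75.0 against 124 to 226 and at 125 to 165 against 263 to 310 reads, while library 2 (squares) is the highest of both groups for Cd28 and Ctla4.

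The killer-cell genes had differences of opposite sign, and neither passed. Klrd1, which encodes CD94, the shared chain of NKG2 receptors (ENSMUSG00000030165; chromosome 6, 129591782 to 129598775, plus strand), had 65.1, 65.2 and 50.6 normalised reads in wild type and 83.5, 124 and 195 in knockout. All knockout libraries lay above the wild-type ones, and they were themselves spread widely. Its log2 fold change of 1.05 ± 0.30 (SE) missed the threshold in limma (limma adjusted p = 0.0564) and passed in edgeR and DESeq2 (adjusted p = 0.0469 and 0.00722), where 5.32% and 7.39% of all genes tested rose.

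Gzma, which encodes the serine protease granzyme A (ENSMUSG00000023132; chromosome 13, 113093825 to 113100981, minus strand), had 20841, 20885 and 18958 normalised reads in wild type and 16417, 17179 and 18049 in knockout. The groups did not overlap, but the gap between wild-type library 3 and knockout library 3 was small. The log2 fold change was -0.23 ± 0.08 (SE; limma adjusted p = 0.106).

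Natural killer cells, which express both genes, were checked by their markers. Of 15 fixed NK markers, Ncr1, Klre1, Klra4, Klra8, Klra9 and Xcl1 were absent by symbol from the deposited table. Every row of that table totals at least 10 reads, and the sources used here do not say why these genes are absent. The 9 markers present summed to 143, 115 and 115 CPM in wild type and 98.0, 121 and 123 in knockout (exact permutation p = 0.6). Much of that sum was Il2rb, which had 3887 to 6459 normalised reads and is also a T-cell gene. Klra7 was at or under 3 reads in every library, and Gzmb was at 1.04 to 10.4 and Klrk1 at 3.62 to 21.1 normalised reads. Of the 6 tested, Tyrobp (2.11) and Fcgr3 (2.08) rose, and both are also expressed by myeloid cells. Eomes (-0.47), Klrb1c (-0.19) and Prf1 (0.24) did not pass.

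Regulatory T cells, which express Ctla4, Icos and Tigit, were checked in the same way. Foxp3, their defining factor, had 13.01, 5.93 and 11.8 normalised reads in wild type and 17.7, 14.5 and 27.1 in knockout, a log2 fold change of 0.85 that did not pass (limma adjusted p = 0.201). The sum of 7 markers, most of it from Ikzf2 and Il2ra, reached 882 ± 146 CPM without the deletion and 617 ± 94 with it (SD, n = 3 each; exact permutation p = 0.1), and Il2ra (-0.66) and Nrp1 (-0.67) fell. The summed T-cell markers were 5031 ± 75 and 4311 ± 494 CPM (exact permutation p = 0.1), and Cd247 (-0.57), Cd5 (-0.48) and Dntt (-0.64) fell among 15. Less abundant were the sums of dendritic (36.6 ± 5.5 and 55.2 ± 14.8 CPM; exact permutation p = 0.2), mast cell and basophil (8.53 ± 3.23 and 21.9 ± 10.3; p = 0.2) and B-cell markers (3.39 ± 0.75 and 10.5 ± 4.7; p = 0.1). Erythroid markers summed to 408 ± 49 and 375 ± 30 CPM (exact permutation p = 0.6; for all these sums, wild type before knockout, SD, n = 3 each). Most of the erythroid sum was Tfrc, which had 16415 to 22357 normalised reads. The next highest erythroid marker, Hbb-bs, had 55.1 to 242. The part of any of these markers in the members' values was not tested.

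**Figure D2:**
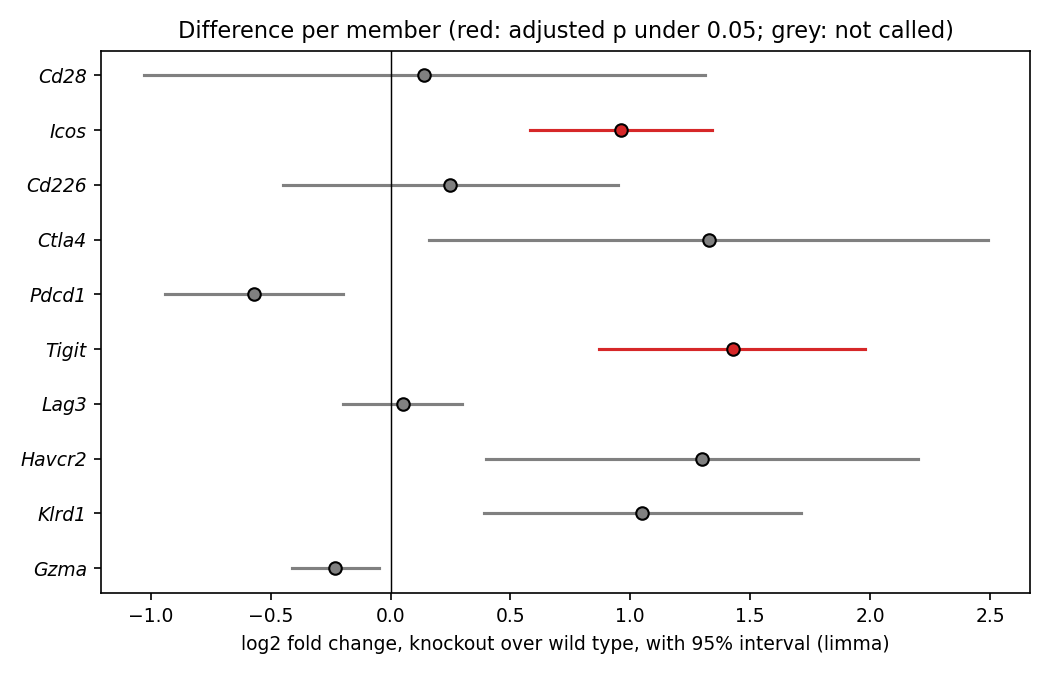
Log2 fold change of each member, knockout over wild type, as a point with its 95% interval from limma, red where the adjusted p passed and grey where it did not. Tigit (1.43) and Icos (0.96) are red, the interval of Cd28 is wide (-1.03 to 1.31) and that of Lag3 is narrow (-0.20 to 0.30).

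Levels per length placed Gzma far above the other members. In RPKM, which divides reads by exon length and by the library total, the wild-type means ran from 396 ± 14 for Gzma through 22.04 ± 1.01 for Lag3, 12.8 ± 3.0 for Pdcd1, 10.3 ± 3.6 for Cd28, 2.09 ± 1.15 for Ctla4, 1.43 ± 0.18 for Tigit, 0.926 ± 0.113 for Klrd1, 0.823 ± 0.134 for Icos and 0.583 ± 0.236 for Cd226 to 0.114 ± 0.072 for Havcr2 (SD, n = 3). Ranges of neighbours in that order overlapped for Pdcd1 and Cd28, for Ctla4 and Tigit, for Klrd1 and Icos and for Icos and Cd226. In the knockout libraries Cd28 (12.4 ± 5.8) came before Pdcd1 (9.02 ± 1.04), and the order was otherwise kept. The knockout means of the other inhibitory receptors were 24.4 ± 4.5 for Lag3, 5.41 ± 2.33 for Ctla4, 4.28 ± 1.28 for Tigit and 0.294 ± 0.072 for Havcr2. In knockout the ranges of neighbours overlapped for Cd28 and Pdcd1, for Pdcd1 and Ctla4, for Ctla4 and Tigit, for Tigit and Klrd1 and for Klrd1 and Icos, and those of Icos and Cd226 did not overlap.

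Cd28, Ctla4 and Icos lie side by side on chromosome 1. By their GENCODE spans, 113641 bases lie between Cd28 and Ctla4 and 62095 between Ctla4 and Icos. Within each library, Ctla4 reads were 5.42, 9.08 and 7.88% of Cd28 reads in wild type and 17.0, 16.1 and 17.0% in knockout, with no correction for length. The ratio was thus above the wild-type range in every knockout library and nearly the same among the 3, although both genes varied widely between those libraries. The means were 7.46 ± 1.86 and 16.7 ± 0.5% (SD, n = 3 each; two-sided exact permutation p = 0.1, the smallest possible), and this ratio was chosen after the values were seen. Icos did not share the high value of library 2 and made up 4.70, 2.78 and 7.47% of Cd28 reads in wild type and 14.0, 4.69 and 8.33% in knockout, with overlapping groups (exact permutation p = 0.3).

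**Figure D3:**
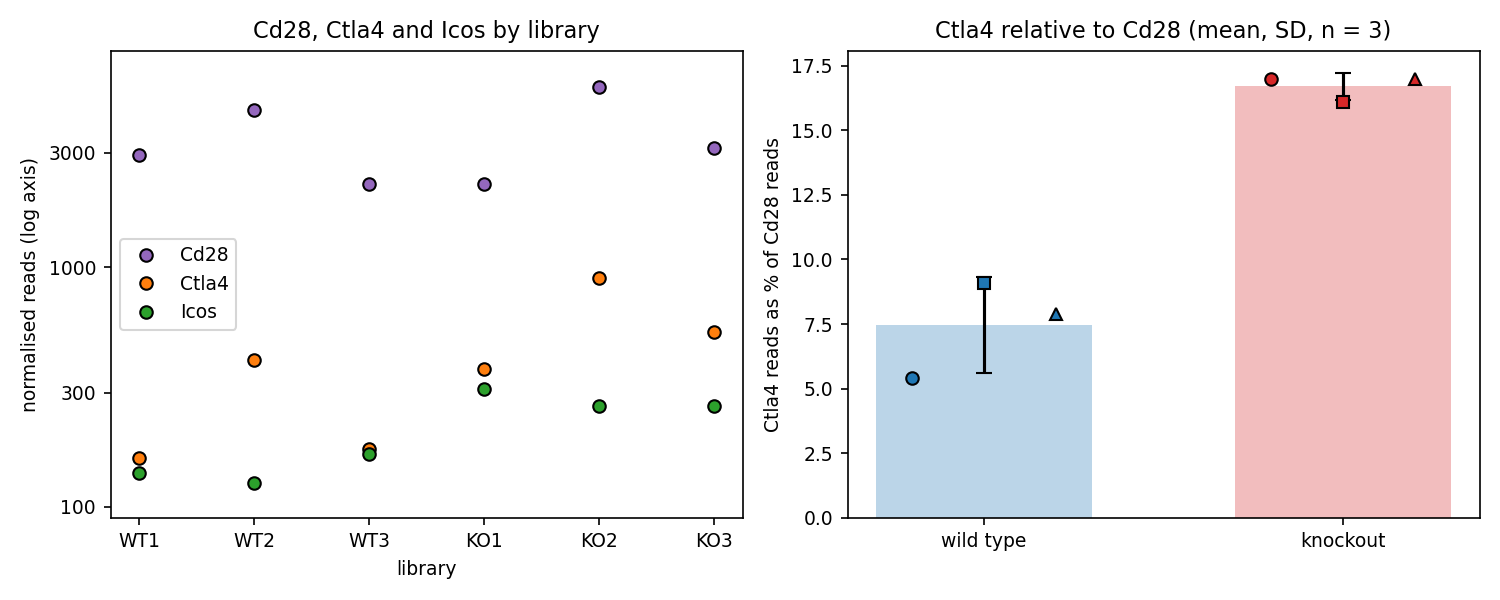
Left, normalised reads of Cd28, Ctla4 and Icos in each library on a log axis; right, Ctla4 reads as a percentage of Cd28 reads, with bars for means, error bars for the SD (n = 3) and marker shapes for library numbers. Cd28 and Ctla4 are highest in library 2 of each group, and the ratio is 5.42 to 9.08% in wild type and 16.1 to 17.0% in knockout.

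Other genes within 200 kb of the members numbered 61 among those tested, of which 3 rose and 3 fell. Over all genes tested, the shares that rose and fell were 5.32% and 3.43%. Raph1, 149696 bases from Cd28, had a log2 fold change of 0.08. Near Lag3, at a distance of 16140 bases, Cd4 had 1631, 1287 and 1443 normalised reads in wild type and 1586, 1333 and 1444 in knockout, a log2 fold change of 0.00 beside 0.05 for Lag3. The 3 falls were all near Lag3, in a dense region with 31 tested neighbours, and were the glycolytic enzyme gene Tpi1 (-0.48), the phosphatase gene Ptpn6 (-0.40) and the remodeller gene Chd4 (-0.34). Near Gzma, the glutathione peroxidase family gene Gpx8 (1.41) and the endothelial gene Esm1 (1.41) rose, while Gzmk, the adjacent granzyme, had 2.71 to 12.8 normalised reads in wild type and 10.4 to 23.9 in knockout and did not pass (1.02). Near Klrd1, Olr1, a scavenger receptor gene, rose (2.79). The nearest tested neighbours were Zbtb20 for Tigit (0.66), D2hgdh for Pdcd1 (-0.40), Gm12168 for Havcr2 (0.05), Rttn for Cd226 (0.19), Cdc20b for Gzma (-0.08), Gabarapl1 for Klrd1 (0.18), Ptms for Lag3 (-0.25) and Gm11579 for Cd28 (0.13), and none of these passed.

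Ligands of these receptors were measured for 17 genes, of which 2 rose and none fell, against 5.32% and 3.43% of all genes tested. Their median was 0.22 on the log2 scale. Lgals3, which encodes galectin-3, a ligand of LAG-3, had 427, 664 and 390 normalised reads in wild type and 1034, 1566 and 1398 in knockout (log2 fold change 1.45). Macrophages are a rich source of that protein, and the monocyte and macrophage sums given above were higher in the same libraries; their part was not tested. Ceacam1, whose product binds TIM-3, rose by 0.45 on the log2 scale. The galectin-9 gene Lgals9 (-0.33), a TIM-3 ligand gene, and H2-T23 (0.23), which encodes the Qa-1 ligand of CD94 and NKG2A, did not pass. The CD28 and CTLA-4 ligand genes Cd80 (0.09) and Cd86 (0.43) and the ICOS ligand gene Icosl (0.76) did not pass.

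Other costimulatory and checkpoint receptors were split, with 4 rises and 2 falls among 19, against 5.32% and 3.43% of all genes tested. Their median was -0.03. The rises were the CD40 ligand gene Cd40lg (2.03), the collagen receptor gene Lair1 (1.43), Btla (1.04) and Vsir (0.61), and the last 3 encode inhibitory receptors. Cd40lg was scarce, at 6.01 to 10.85 normalised reads in wild type and 31.3 to 53.2 in knockout. Lair1 had 30.0 to 46.4 and 82.4 to 112. The part of the higher neutrophil and monocyte and macrophage sums in these rises was not tested. Btla, the receptor for HVEM, had 685, 844 and 795 normalised reads in wild type and 1272, 1470 and 2155 in knockout, and the groups did not overlap. Vsir, which encodes VISTA and is also expressed by myeloid cells, had 1521, 1640 and 1254 against 2114, 2225 and 2344. The falls were Cd5 (-0.48) and Cd6 (-0.47), scavenger receptor family members that restrain antigen receptor signals.

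Of 30 signalling genes below these receptors that were tested, 1 rose and 3 fell, against 5.32% and 3.43% of all genes tested. The median was -0.13. Positive log2 fold changes were found for 8 of the 30, against 48.3% of all genes tested, and all knockout values lay below all wild-type values for 12, against 16.2% of all genes tested. Malt1, which encodes a paracaspase, rose (0.57). Ptpn6, the phosphatase SHP-1 recruited by inhibitory receptors (-0.40), Prkcq, the kinase that links CD28 to NF-kappaB (-0.38), and Nfatc1 (-0.29) fell. Among those that did not pass were the kinase genes Lck (-0.26) and Fyn (-0.02) and the PI3 kinase gene Pik3cd (-0.13).

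Natural killer receptor genes and their adaptors had 2 rises and no fall among 8 tested, against 5.32% and 3.43% of all genes tested. Their median was 0.34. The rises were the scarce Klrb1f (1.68) and the adaptor gene Tyrobp (2.11). Tyrobp was at 88.1, 209 and 84.0 normalised reads in wild type and 417, 662 and 470 in knockout. Clec2i (0.48) and Klrb1b (0.56) did not pass. Wild-type library 2 was the highest wild-type library for Tyrobp, as it was for the neutrophil and the monocyte and macrophage sums; their part was not tested.

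Effector genes other than Gzma had 1 rise and no fall among 14, against 5.32% and 3.43% of all genes tested. Their median was 0.38, and all 14 had positive log2 fold changes, against 48.3% of all genes tested. The neutrophil sum (275 ± 188 and 1238 ± 179 CPM in wild type and knockout) and the monocyte and macrophage sum (83.9 ± 35.3 and 236 ± 59.4 CPM) were higher in the same knockout libraries (SD, n = 3 each). Some of these genes, such as Ccl3 and Srgn, are also expressed by myeloid cells, whose part was not tested. Ctsw, a cathepsin of cytotoxic lymphocytes, had 270, 329 and 256 normalised reads in wild type and 448, 653 and 663 in knockout (1.03). Ccl3 (1.47), Nkg7 (1.26) and Serpinb9 (0.43) did not pass, nor did perforin (Prf1, 0.24) or interferon gamma (Ifng, 0.66).

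Transcription factors of effector and exhausted T cells had 3 rises and 2 falls among 23, against 5.32% and 3.43% of all genes tested. Their median was 0.07. Zeb2 (2.01), Maf (1.63) and Prdm1 (1.26) rose. Each is also expressed in myeloid cells, whose summed markers were higher in the same libraries, and their part was not tested. Maf had 327, 332 and 264 normalised reads in wild type and 588, 1194 and 1219 in knockout. The falls were Tcf7 (-0.49) and Lef1 (-0.37), the factors of early T-cell development. Tox, which sustains exhausted T cells, was at -0.26 and did not pass (limma adjusted p = 0.0778), and Tbx21 and Eomes did not pass. Nr4a3 and Bhlhe40 were highest in library 2 of both groups and did not pass either (0.18 and 1.70).

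**Figure D4:**
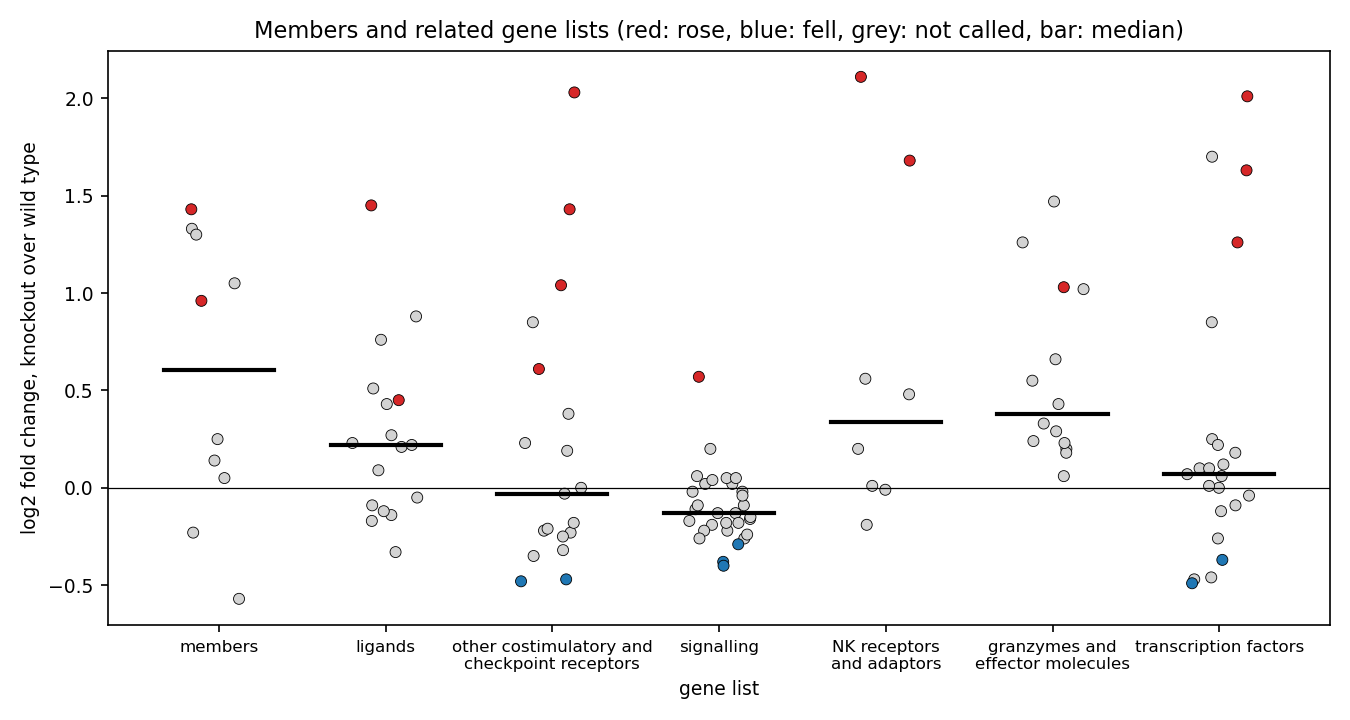
The vertical axis gives log2 fold changes of knockout relative to wild type, and the horizontal axis the 10 members and 6 related lists. Points are tested genes, red for rises, blue for falls and grey otherwise, and black bars are medians. The medians run from -0.13 for signalling genes to 0.38 for effector genes and 0.60 for the members.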

How the data were processed

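PolyA RNA was sequenced from 3 wild-type and 3 Phf6 knockout samples. The authors used GRCm38 with STAR 2.6.0a, bcl2fastq 1.8.4, DESeq2 and featureCounts, per the submitters' processing notes. For the annotation, the strand setting and multi-mapping reads, nothing is given in the sources used here. The deposited table holds a signal, which the authors made as read counts divided by a size factor for each library, as read from the values. Every value was a whole multiple of 1 step per library within 0.01, which gave the reads. Of 23314 rows, 8 had no identifier (at most 0.00106% of reads) and were left out. GENCODE M21 gave positions for 23277 of 23306 genes.

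Because the values are normalised, the test was limma (version 3.58.1 in R 4.3.3), run on log2 of the value plus 2 with trend and robust empirical Bayes, group as the only term, for genes at 10 or more in at least 3 libraries. Log2 fold changes are on that scale and understate changes of low genes. The Benjamini-Hochberg adjustment covered all genes tested, and the threshold was 0.05. The test was checked on simulated counts, where the share of false calls was above the nominal level and most of the smaller changes were missed. Alternatives were edgeR 4.0.16 and DESeq2 1.42.0 on recovered reads, limma-voom, other scalings, filters and pseudocounts, a replicate block and each library left out. Marker sums used TMM-scaled CPM. RPKM used library totals and the union of exons.

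The members and lists were chosen with earlier results of these data known. All members are named; of each list, the called genes and up to 4 with the smallest p; of neighbours, the called and otherwise the nearest. Cd274, Pdcd1lg2, Cd80, Cd86, Fyn, Pik3cd, Ifng, Prf1, Raph1, Cd4, Gzmk, Pvr, Icosl, Tbx21, Eomes, Nr4a3, Rel and Bhlhe40, and single marker genes, were named outside this rule, for their roles, with values seen.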

Additional observations from a re-analysis of the deposited data

How the results depend on the processing

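Tigit kept a positive log2 fold change in all 19 alternatives (1.22 to 1.70) and was called in 18, and Icos (0.87 to 1.07) in 17. Cd28 reversed without wild-type replicate 3 (-0.10) and without knockout replicate 2 (-0.22), and Lag3 without knockout replicate 3 (-0.08), within ranges over left-out libraries of -0.22 to 0.45 and -0.08 to 0.13. The number of members called, 2 higher and 0 lower, was 0 to 4 higher and 0 to 1 lower with each library left out: 0 higher without knockout library 3, 1 without wild-type library 1, and 4 higher and 1 lower without wild-type library 2. Over all genes tested the calls moved the same way, from 957 higher and 618 lower to 180 and 73, 374 and 91, and 1155 and 786 in that order. The lower count was 1 with DESeq2. Same-numbered libraries deviated together for number 2 (correlation 0.50), less so for number 3 (0.14) and not for number 1 (0.01). Wild-type library 3 correlated more with knockout library 1 (0.38), and wild-type library 1 more with knockout library 3 (0.18). The numbers were therefore not taken as pairs. With a replicate block 5 members were called higher (Ctla4, Havcr2 and Klrd1 beside Tigit and Icos) and 1 lower (Pdcd1), against 14.3% of all genes tested. With wild-type and knockout library 2 left out together, an alternative chosen after seeing the data, 4 were higher (Ctla4 and Havcr2 beside Tigit and Icos) and 1 lower (Pdcd1), against 12.4% of all genes.

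Pathway genes called, 13 higher and 7 lower, were 1 to 16 and 0 to 6 with each library left out, and 6 and 0 without trend and robust fitting; 4 were lower with upper-quartile scaling and 2 with library totals. Neighbours called, 3 higher and 3 lower, were 0 to 3 each with each library left out, 5 and 6 with the replicate block and 0 and 0 without trend and robust fitting. Of the neighbours, 1 was lower with library totals, 6 with DESeq2 and 6 without the number-2 libraries. The cause was not tested for these counts. Library totals moved the median of all genes to 0.069. With the longest transcript as length, Cd28 ranked 3 and Pdcd1 4 in wild type. Marker sums kept their direction with library totals. The exact permutation p then went from 0.1 to 0.3 for T-cell markers and from 0.1 to 0.2 for regulatory T-cell markers. It stayed at 0.1 for neutrophil, monocyte and macrophage, and B-cell markers. At 1 CPM in 3 libraries Havcr2 could not be fitted. Depth limits Havcr2 most, at 9.01 to 49.9 normalised reads.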
